A study of Mus musculus with 162 samples.

Results

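Fatty acid beta-oxidation is represented here by 35 genes of the mitochondrial and peroxisomal pathways, taken as the genes of the count table whose symbol is on a list of pathway genes, out of 53686 genes in all. The samples are mRNA libraries of 9 organs from 18 male C57BL/6J mice aged 8 to 9 weeks, with 3 mice at each of 6 fasting times. The control group (0 h) ate ad libitum, food was withdrawn 2, 8, 12, 18 or 22 h before death in the fasted groups, water was always present, and every mouse was killed within the same interval of the early dark phase of a 12:12 h light:dark cycle. The organs were olfactory bulb (OB), brain without bulb, cerebellum and brainstem (BRN), cerebellum (CBL), brainstem (BST), LIV (liver), STM (stomach), brown fat from between the shoulder blades (iBAT), and white fat from the gonadal (pgWAT) and the posterior subcutaneous depot (psWAT). All fasted groups were compared with the same 3 fed mice, so comparisons within an organ share their controls.

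Beta-oxidation shortens fatty acyl-CoA by repeated cycles of dehydrogenation, hydration, a further dehydrogenation and thiolysis. Long chains enter mitochondria through the carnitine shuttle, electrons leave the acyl-CoA dehydrogenases through the electron transfer flavoprotein, and peroxisomes take very long and branched chains with enzymes of their own. The pathway fuels ketone synthesis in the fasted liver and heat production in brown fat.

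The libraries retained held between 3045845 and 27801717 counts, with a median of 8735554, and 5 libraries of low total were not used (BRN at 8 h and 18 h, iBAT at 22 h, psWAT at 22 h, STM at 12 h, 1 each). iBAT therefore has 2 libraries at 22 h. In LIV, STM and OB the fed libraries carry a different lane number in their names from all 18 and 22 h libraries, with only the 8 h libraries in both lanes, so lane and fasting time are nearly confounded there. In pgWAT the fed libraries likewise share no lane with the 18 and 22 h libraries. Both retained iBAT libraries of 22 h lie in lanes that hold no other retained iBAT library, and 1 of them (22 h replicate 2) held 3156101 counts, so in iBAT lane and a 22 h fast cannot be told apart. In BRN the fed libraries and the late fasted libraries carry different library number series, and series and fast are nearly confounded. Organ labels were checked against defining markers. Summed hepatocyte markers in LIV ran from 75041 to 99497 normalized CPM, brown adipocyte markers in iBAT from 5117 to 17889, and gastric epithelial markers in STM from 87045 to 300709. Neuron markers ran from 2456 to 4433 in BRN, 5025 to 5746 in CBL, 5789.8 to 6840.2 in BST and 4022 to 4584 in OB. Libraries BRN 2 h replicate 3, BRN 18 h replicate 2, pgWAT 22 h replicate 2 and psWAT 12 h replicate 3 stood apart. In psWAT, summed white adipocyte markers ran from 251 to 18508 CPM and leukocyte markers from 571 to 4619, and psWAT 12 h replicate 3 held 3811 CPM of neuron markers. The library pgWAT 22 h replicate 2 held 9206 CPM of smooth muscle markers and 3366 of white adipocyte markers, against a median of 23829. In bulk tissue, fewer cells of a type and less RNA per cell cannot be told apart.

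Levels between genes are given per kilobase of exon after scaling all organs together (CPM per kb), a level and not a difference. Summed over the 35 genes, the mean level was 12947 CPM per kb in iBAT (library sums 9319 to 15796, n = 17), 4504 in LIV (3775 to 5870.1, n = 18) and 1889 in pgWAT (758 to 2741, n = 18). It was 974 in psWAT (310.2 to 2613, n = 17) and 912 in STM (721 to 1202, n = 17), so STM and psWAT overlapped. The nervous system organs had the lowest means, at 294 in BST, 254 in CBL, 249 in OB and 249 in BRN. The lowest psWAT library lay inside the range of BST libraries (275.6 to 318.6). iBAT held the highest mean of 24 genes, LIV of 10 and STM of 1. The gene with the highest level was Acaa2, the mitochondrial 3-ketoacyl-CoA thiolase, in iBAT (2526) and STM (138.2), and Acaa1b, a peroxisomal thiolase, in LIV (1333). It was Ech1, a dienoyl-CoA isomerase, in pgWAT (283) and BRN (27.3), and Acadl, the long-chain acyl-CoA dehydrogenase, in psWAT (110.1) and BST (30.3). Etfa, a subunit of the electron transfer flavoprotein, led in CBL (28.97) and Acadvl, the very long-chain dehydrogenase, in OB (20.8). The 7 genes grouped as peroxisomal made up 39.4% of the summed level in LIV and 2.61% in iBAT, while the 4 mitochondrial acyl-CoA dehydrogenases made up 12.9% in LIV and 38.4% in iBAT. Most of the peroxisomal share in LIV was Acaa1b, which alone made up 29.6% of the sum there.

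The carnitine shuttle starts at the outer mitochondrial membrane with carnitine palmitoyltransferase 1, whose liver form is Cpt1a and muscle form Cpt1b, and ends inside with Cpt2. The level of Cpt1a (chr19:3322334-3385733, mouse GRCm38, Gencode M21) in CPM per kb, mean and SD over libraries, was 42.9 ± 12.2 in LIV, 17.6 ± 4.39 in STM, 10.2 ± 2.12 in pgWAT, 6.35 ± 0.596 in BST, 5.59 ± 2.23 in psWAT, 3.997 ± 0.412 in OB, 3.23 ± 1.27 in iBAT, 3.10 ± 0.361 in CBL and 2.51 ± 0.456 in BRN. LIV and STM had the highest means, and the mean of iBAT was among the low ones with those of CBL and BRN. Cpt1b (chr15:89416405-89425863) was at 5.16 ± 2.54 in iBAT and at a mean of 0.165 or less in the other 8 organs, where it did not pass the filter on low counts. Cpt2 (chr4:107903981-107923610) was at 309.8 ± 56.7 in iBAT, 113.8 ± 9.28 in LIV, 69.6 ± 16.8 in pgWAT, 41.8 ± 37.7 in psWAT, 41.5 ± 8.11 in STM, 6.69 ± 1.12 in BST, 3.95 ± 1.38 in BRN, 3.33 ± 0.603 in CBL and 3.07 ± 0.489 in OB. iBAT and LIV had the highest means and the 4 nervous system organs the lowest. Acadm, the medium-chain dehydrogenase, was at 1056 ± 162.003 in iBAT, 115.03 ± 31.4 in pgWAT, 86.1 ± 17.2 in LIV, 65.2 ± 64.03 in psWAT, 26.01 ± 6.54 in STM, 12.2 ± 0.916 in OB, 10.9 ± 1.02 in CBL, 9.82 ± 0.680 in BST and 7.13 ± 1.26 in BRN, and iBAT was the highest by a wide margin.

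**Figure D1:**
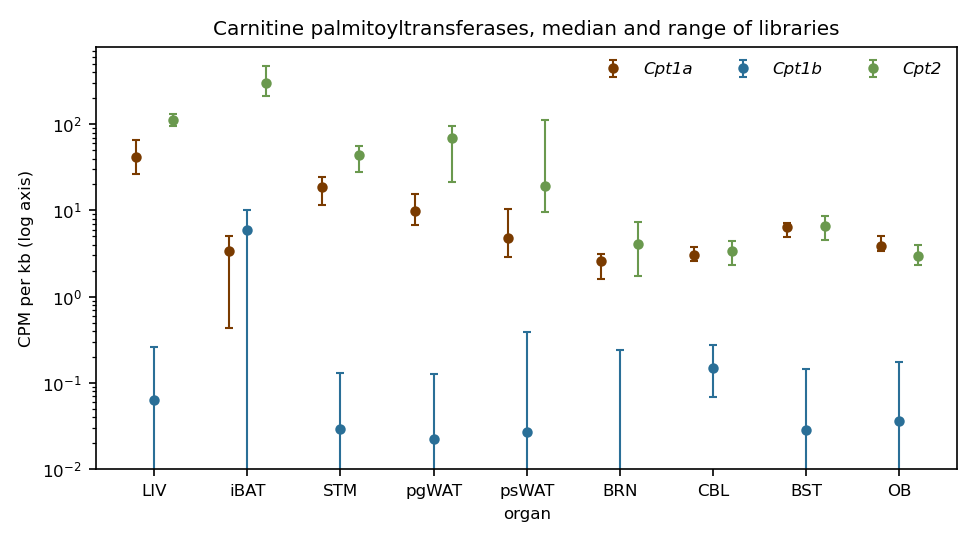
Median and range over libraries of Cpt1a, Cpt1b and Cpt2 in CPM per kb (log axis) in each organ. Cpt1b reaches the level of Cpt1a in iBAT alone among the 9 organs, and medians or lower ends below the axis minimum are not drawn.

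To ask how brown fat differs from white fat, iBAT was compared with the mean of pgWAT and psWAT in a fit of all organs. Of the 35 genes, 33 were higher and 1 lower in iBAT at adjusted p under 0.05 (edgeR), where 64.5% of all genes tested were called (28% higher, 36.5% lower). The median log2FC was 2.59 for the 35 genes and -0.31 for all genes. The 8 smallest adjusted p belonged to Hadha, which carries hydratase and dehydrogenase activities of the trifunctional protein, Etfdh, which passes electrons to ubiquinone, Acadvl, Acaa2, Slc25a20, the carnitine-acylcarnitine carrier, Acadl, Decr2, a peroxisomal dienoyl-CoA reductase, and Acadm. Acaa2 had lowest 1595, median 2589.6, highest 3271 CPM per kb in iBAT, lowest 55.4, median 128, highest 203 in pgWAT and lowest 25.2, median 45.7, highest 326 in psWAT. No iBAT library overlapped with the white fat libraries. Its difference was log2FC 4.58, SE 0.13, adjusted p 4.61e-59. The other log2FC values were 3.71 for Hadha, 4.22 for Etfdh, 4.23 for Acadvl, 3.96 for Slc25a20, 4.14 for Acadl, 2.44 for Decr2 and 3.77 for Acadm. Cpt1a was the 1 gene lower in iBAT (log2FC -1.43, SE 0.09, adjusted p 1.83e-29), and Cpt1b and Acot3, among the genes called higher, did not pass the filter in pgWAT or psWAT, so their fitted differences depend on the prior count and are not given. Acox3, a peroxisomal oxidase, was not called (log2FC 0.20, SE 0.09, adjusted p 0.057). Because summed white adipocyte markers varied between psWAT libraries, iBAT was also compared with pgWAT alone, an alternative chosen after the data were seen, and 31 genes were called (30 higher, 1 lower) with 63% of all genes called in either direction.

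LIV was compared with iBAT in the same fit. LIV was higher for 10 genes and lower for 21, with 67.4% of all genes called (31.9% higher, 35.5% lower), and the median log2FC was -1.77 for the 35 genes and -0.06 for all genes. Every mitochondrial dehydrogenase (4 of 4) and every gene of the later mitochondrial steps (5 of 5) was lower in LIV, while 4 of 7 peroxisomal genes were higher. Cpt1a had lowest 26.6, median 42.002, highest 65.6 CPM per kb in LIV and lowest 0.432, median 3.39, highest 5.03 in iBAT, with no overlap between organs. It gave log2FC 3.97, SE 0.11, adjusted p 8.08e-61. Acox2, which oxidizes branched chains and bile acid intermediates, had lowest 32.9, median 50.3, highest 75.8 in LIV and lowest 0, median 0.434, highest 0.824 in iBAT and gave log2FC 7.29, SE 0.27, adjusted p 1.23e-46. The remaining genes among the 8 smallest adjusted p were lower in LIV, with log2FC -3.01 for Hadha, -3.79 for Acadl, -3.47 for Etfdh, -4.01 for Crat, a carnitine acetyltransferase, -3.72 for Hadhb, the thiolase subunit of the trifunctional protein, and -3.62 for Acadm. Among paralogs, LIV was higher for Acaa1b (5.07) and Acaa1a (0.88), lower for Eci1 (-2.15) and Decr1 (-2.34), and higher for Decr2 (1.45). The thioesterases Acot1 and Acot4 were higher in LIV (0.68 and 2.02) and Acot2 lower (-3.82), and Acot3 was called higher in LIV with counts near 0 in iBAT. Reads of near-identical paralogs (Acot1 with Acot2, Acaa1a with Acaa1b) may be shared or lost in counting, so their separate levels are uncertain. Most iBAT libraries lie in other lanes than the LIV libraries, so lane and organ are largely confounded.

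Fasting was tested within each organ as the mean of 18 and 22 h against 0 h, so that up to 6 libraries faced 3 fed ones. Libraries of 18 and 22 h are called late below. In LIV, 4 of 34 genes tested were called (1 higher, 3 lower), with 10.6% of all genes called (5.19% higher, 5.39% lower), a median log2FC of -0.06 for the pathway and 0.01 for all genes. In iBAT, 13 of 35 were called (10 higher, 3 lower) against 20.9% of all genes (7.91% higher, 13.0% lower), with medians of 0.40 and -0.07. In STM, 9 of 33 were called, all 9 lower, against 15.3% of all genes (6.21% higher, 9.09% lower), with medians of -0.27 and 0.00. In BRN, 3 of 33 were called, all higher, against 11.2% of all genes (7.08% higher, 4.17% lower), with medians of 0.21 and -0.09. The share of the pathway called in LIV and in BRN was thus near that of all genes. LIV at 8 and 12 h, with the same controls, gave 4 of 34 called (1 higher, 3 lower) and 8.89% of all genes (4.08% higher, 4.81% lower). The counts rested on few libraries, and the share of all genes called in the same test is given in parentheses. Without iBAT 0 h replicate 2 the iBAT count was 2 (4.07%), and without iBAT 18 h replicate 2, 18 h replicate 3 or 22 h replicate 2 it was 8 (14.4%), 8 (14.1%) and 6 (9.73%). Without STM 0 h replicate 3 the STM count was 1 (3.0%), and it was 5 (8.77%) without STM 18 h replicate 3. The LIV count was 1 without 0 h replicate 1 (4.85%), 0 h replicate 2 (4.22%), 18 h replicate 1 (11.4%) or 22 h replicate 2 (6.82%), and 2 (8.08%) without 22 h replicate 3. The LIV count at 8 and 12 h was 2 (1.75%) without 0 h replicate 1, 1 (1.36%) without 0 h replicate 2, 7 (9.47%) without 0 h replicate 3 and 7 (10.9%) without 8 h replicate 3. The BRN count was 0 without 0 h replicate 1 (0.0%), 0 h replicate 3 (1.53%) or 18 h replicate 2 (2.7%), 1 (2.41%) without 0 h replicate 2, and 9 of 33 (33.4% of all genes) without 18 h replicate 3. Taken singly, a split chosen after the data were seen, 18 h gave 0 (0.275%) called genes in iBAT and 22 h gave 18 (41%), while in STM 18 h gave 9 (14.3%) and 22 h gave 0 (0.24%), in LIV 18 h gave 4 (9.97%) and 22 h gave 1 (4.15%), and in BRN 18 h gave 0 (2.41%) and 22 h gave 2 (6.88%). With lane as a covariate the count was 1 (0.15%) in LIV and 0 (0.0%) in STM, and with library number series as a covariate it was 6 (9.81%) in iBAT and 0 (0.0%) in BRN. In iBAT, 22 h replicate 2 is the only retained library of its series, so the series covariate there amounts to leaving that library out. A lane covariate was not tested in iBAT. Where a single time gave 0 in edgeR, the counts at unadjusted p under 0.05 over both times were 22 of 35 in iBAT (37.04% of all genes), 14 of 33 in STM (32.3%) and 9 of 33 in BRN (29.03%), and DESeq2 called 19 (27.2%), 10 (20.5%) and 5 (18.0%).

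**Figure D2:**
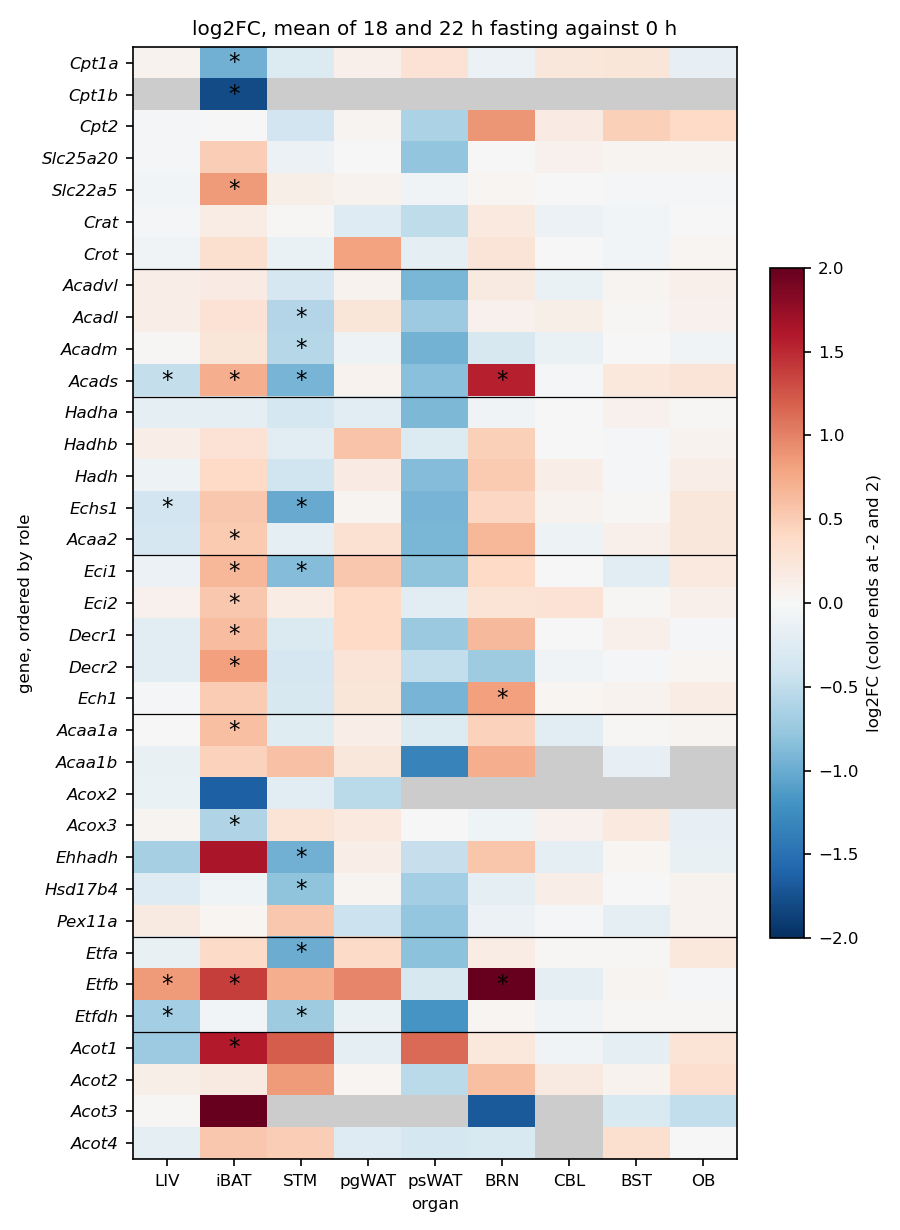
log2FC of the mean of 18 and 22 h fasting against 0 h for 35 genes (ordered by role) in 9 organs, with the color scale ending at -2 and 2. Stars mark adjusted p under 0.05 in edgeR, and grey marks genes that did not pass the filter. The 9 stars of STM are all on lower genes.

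Results by role begin with the carnitine shuttle (7 genes), and the levels by library below are TMM-normalized CPM within an organ. In LIV, STM and BRN no shuttle gene was called by edgeR, and the 6 tested in LIV ran from log2FC -0.07 to 0.08. Cpt1a in LIV was at 231.5, 247 and 130.1 normalized CPM in the fed libraries, at 170.97, 209 and 308 after 18 h and at 215, 209 and 173 after 22 h, and fed and late libraries overlapped (log2FC 0.08, SE 0.22, adjusted p 0.863). In iBAT, Cpt1a was at 19.6, 24.2 and 14.3 normalized CPM in the fed libraries, at 20.8, 27.7 and 27.1 after 18 h and at 2.55 and 4.89 after 22 h. The 18 h libraries overlapped with fed libraries, while both 22 h libraries lay below every other iBAT library. The fitted change was log2FC -0.96, SE 0.23, adjusted p 0.0109, and at 18 h alone it was log2FC 0.37, adjusted p 0.725, so its direction came from 22 h. Cpt1a in iBAT was not called without 0 h replicate 2 (0.0861), adjusted p in parentheses, nor in an alternative fit with transcript length offsets. Cpt1b in iBAT was at 8.92, 24.8 and 14.5 normalized CPM in the fed libraries, at 13.6, 9.82 and 16.7 after 18 h and at 0 and 2.45 after 22 h. Both 22 h libraries were below the fed ones, with 1 of them at 0, the 18 h libraries lay inside the fed range, and 12 h replicate 3 was low as well (3.61). The change (log2FC -1.79, SE 0.49, adjusted p 0.02) was not called any longer without any 1 of 0 h replicate 2 (0.139) and 22 h replicate 2 (0.0581). Slc22a5, the plasma membrane carnitine transporter, was at 66.4, 73.2 and 38.8 normalized CPM in the fed libraries, at 98.1, 101.7 and 94.4 after 2 h, at 99.0, 69.2 and 56.01 after 8 h, at 88.9, 89.03 and 86.6 after 12 h, at 90.8, 119.1 and 111.2 after 18 h and at 112.6 and 102.2 after 22 h. The 2 and 12 h libraries and 1 of the 8 h libraries were above the fed ones as well. All 5 late libraries were above the 3 fed ones (log2FC 0.85, SE 0.21, adjusted p 0.0118), and its change was alike at 18 h (log2FC 0.84, adjusted p 0.151) and 22 h (log2FC 0.85, adjusted p 0.0125).

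Of the 4 acyl-CoA dehydrogenases, which open each cycle, Acads, the short-chain enzyme, was called in 4 organs. Its values in LIV were at 159.6, 170.7 and 134.8 normalized CPM in the fed libraries, at 78.4, 131.1 and 96.9 after 18 h and at 118.3, 123.4 and 123.8 after 22 h. All 6 late libraries were below the 3 fed ones (log2FC -0.48, SE 0.14, adjusted p 0.0365). Acads in LIV was not called without any 1 of 0 h replicate 1 (0.116), 0 h replicate 2 (0.170), 18 h replicate 1 (0.059), 18 h replicate 3 (0.0609), 22 h replicate 1 (0.0593), 22 h replicate 2 (0.0645) and 22 h replicate 3 (0.0556). At 8 and 12 h it was at 113.7, 88.9 and 135.7 and at 93.4, 75.2 and 83.4 (log2FC -0.67, SE 0.14, adjusted p 0.00767), where the 12 h libraries were below every fed one and 8 h replicate 3 lay inside the fed range, and it was not called without 0 h replicate 2 (0.0652). In iBAT, Acads was at 567, 416 and 566 normalized CPM in the fed libraries, at 689, 608 and 702 after 18 h and at 1267 and 937 after 22 h. Every late library was above every fed one, 1 library each of 2, 8 and 12 h lay inside the fed range, and the 22 h libraries were the highest of the organ (log2FC 0.73, SE 0.19, adjusted p 0.0158). Acads in iBAT was not called without any 1 of 0 h replicate 2 (0.0949) and 22 h replicate 2 (0.0589). In STM it was at 94.6, 60.5 and 129 normalized CPM in the fed libraries, at 44.1, 47.1 and 34.8 after 18 h and at 62.9, 52.7 and 59.2 after 22 h. The 18 h libraries were lowest, and 1 of the 22 h libraries exceeded the lowest fed one (log2FC -0.94, SE 0.19, adjusted p 0.0069). Acads in STM was not called without 0 h replicate 3 (0.0636). In BRN it was at 7.27, 7.20 and 7.74 normalized CPM in the fed libraries, at 33.8 and 10.4 after 18 h and at 19.4, 32.2 and 15.03 after 22 h, with 2 libraries at 18 h, and the 5 late libraries lay above the fed ones (log2FC 1.56, SE 0.38, adjusted p 0.0188). Every BRN library of 2, 8 and 12 h lay above the fed ones as well (8.96 to 23.5). Acads in BRN was not called without any 1 of 0 h replicate 1 (0.107), 0 h replicate 2 (0.0662), 0 h replicate 3 (0.0684) and 18 h replicate 2 (0.0842). Acadm in STM was at 87.2, 90.9 and 120.9 normalized CPM in the fed libraries, at 62.5, 62.5 and 60.4 after 18 h and at 68.9, 88.8 and 61.5 after 22 h. The fed libraries overlapped with 1 library at 22 h (log2FC -0.57, SE 0.16, adjusted p 0.0286), and the call was lost without any 1 of 0 h replicate 3 (0.182), 18 h replicate 1 (0.0535), 18 h replicate 3 (0.0579) and 22 h replicate 3 (0.056). Acadl in STM was called at log2FC -0.59 and adjusted p 0.0496, and was not called without any 1 of 0 h replicate 1 (0.0921), 0 h replicate 3 (0.254), 18 h replicate 1 (0.105), 18 h replicate 3 (0.106), 22 h replicate 1 (0.0511) and 22 h replicate 3 (0.0932).

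Among genes of the later mitochondrial steps, Echs1, the short-chain enoyl-CoA hydratase, was at 195, 198 and 158.9 normalized CPM in the fed libraries, at 117.1, 154.7 and 156.8 after 18 h and at 138.7, 127 and 149.1 after 22 h in LIV. All 6 late libraries were below the fed ones (log2FC -0.39, SE 0.12, adjusted p 0.0383). The call in LIV was lost without any 1 of 0 h replicate 1 (0.149), 0 h replicate 2 (0.170), 18 h replicate 1 (0.0635), 22 h replicate 1 (0.0554) and 22 h replicate 2 (0.085). With transcript length offsets this LIV call was lost too. At 8 h Echs1 was at 124.6, 120.2 and 159.99 and at 12 h at 115.4, 98.0 and 101.9 (log2FC -0.63, SE 0.12, adjusted p 0.00451). The 12 h libraries were the lowest of the 6 times, and no single library changed this call. Acaa2 in LIV was at 927, 956 and 771 normalized CPM in the fed libraries, at 644, 589 and 881 after 8 h, at 579.5, 456 and 509 after 12 h, at 528, 703 and 677 after 18 h and at 753, 784 and 769 after 22 h. It was called at 8 and 12 h (log2FC -0.55, SE 0.13, adjusted p 0.0106) and not at 18 and 22 h (log2FC -0.34, SE 0.13, adjusted p 0.0886), and 1 of the 8 h libraries overlapped with the fed ones. Acaa2 at 8 and 12 h was not called without any 1 of 0 h replicate 1 (0.0707) and 0 h replicate 2 (0.0833). In STM, Echs1 was at 159.7, 99.7 and 219 normalized CPM in the fed libraries, at 60.2, 70.8 and 70.8 after 18 h and at 87.0, 110.1 and 82.5 after 22 h. The lowest fed library overlapped with 1 library at 22 h (log2FC -1.01, SE 0.20, adjusted p 0.00576). Echs1 in STM was not called without 0 h replicate 3 (0.0527). In iBAT, Echs1 was at 935, 575 and 967 normalized CPM in the fed libraries, at 957, 946 and 1029 after 18 h and at 1583 and 1364 after 22 h, where the 18 h libraries were near the higher fed ones and the 22 h libraries were higher, and it was not called by edgeR (log2FC 0.54, SE 0.21, adjusted p 0.0685) although DESeq2 called it. Acaa2 in iBAT was called at log2FC 0.52 (adjusted p 0.0461), with fed and late libraries overlapping, and was lost without any 1 of 0 h replicate 2 (0.185), 0 h replicate 3 (0.0945), 18 h replicate 1 (0.0775), 18 h replicate 2 (0.0543), 18 h replicate 3 (0.0864) and 22 h replicate 2 (0.106). Transcript length offsets lost it as well.

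**Figure D3:**
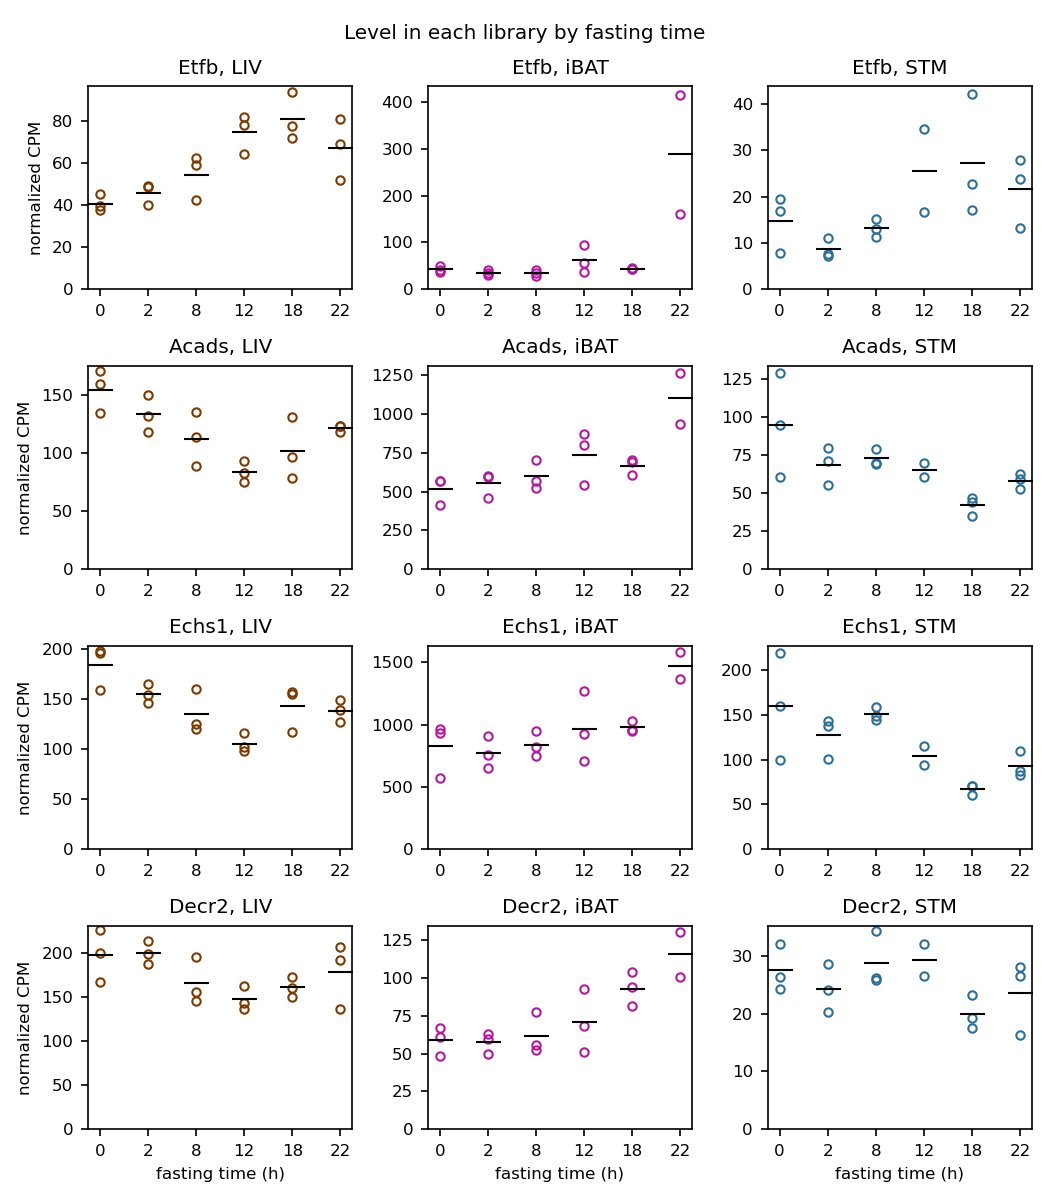
Normalized CPM of Etfb, Acads, Echs1 and Decr2 in each library (circles) of LIV, iBAT and STM by fasting time, with the mean of each time as a dash. Among iBAT libraries, those of 22 h are the highest for Etfb, Acads and Echs1.

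The enzymes that handle unsaturated chains gave 4 of 5 called genes in iBAT, all higher, where 20.9% of all genes were called (7.91% higher). Eci1, the mitochondrial enoyl-CoA isomerase, was at 687, 472 and 545 normalized CPM in the fed libraries, at 648, 697 and 748 after 18 h and at 1256 and 1075 after 22 h in iBAT. The 18 h libraries overlapped with 1 fed library and the 22 h libraries were above all others (log2FC 0.67, SE 0.17, adjusted p 0.0126). Decr2 was at 66.998, 48.4 and 60.7 normalized CPM in the fed libraries, at 81.2, 93.7 and 103.9 after 18 h and at 130.4 and 100.9 after 22 h. All 5 late libraries were above the fed ones, with a fitted change of log2FC 0.82, SE 0.21, adjusted p 0.0128, while 18 h alone was not called (log2FC 0.66, adjusted p 0.324). Eci1 was not called without 0 h replicate 2 (0.0788) and Decr2 was not called without 0 h replicate 2 (0.0832). Their paralogs were called too, Eci2, the peroxisomal isomerase, at 0.54 (adjusted p 0.0375) and Decr1, the mitochondrial reductase, at 0.61 (adjusted p 0.0346). Eci2 was lost without any 1 of 0 h replicate 2 (0.182), 0 h replicate 3 (0.0594), 18 h replicate 2 (0.0661), 18 h replicate 3 (0.0708) and 22 h replicate 2 (0.100), and Decr1 without any 1 of 0 h replicate 2 (0.179), 18 h replicate 2 (0.0606), 18 h replicate 3 (0.0656) and 22 h replicate 2 (0.0942). In STM, Eci1 was at 61.7, 46.6 and 124.9 normalized CPM in the fed libraries, at 33.1, 49.04 and 31.5 after 18 h and at 54.5, 52.4 and 37.3 after 22 h. Fed library 3 was far above the others, and the fed range overlapped with the late one (log2FC -0.86, SE 0.24, adjusted p 0.0265). Eci1 in STM was not called without any 1 of 0 h replicate 3 (0.338), 18 h replicate 1 (0.0603), 18 h replicate 3 (0.0626) and 22 h replicate 3 (0.0521). In LIV the 5 genes were not called by edgeR, running from -0.22 to 0.09. Ech1 in BRN was at 40.8, 53.98 and 49.5 normalized CPM in the fed libraries, at 104.8 and 63.5 after 18 h and at 84.1, 107 and 65.1 after 22 h, and the 5 late libraries lay above the fed ones (log2FC 0.81, SE 0.20, adjusted p 0.0188). Every library of 2, 8 and 12 h lay above the fed ones as well (57.02 to 87.1). Ech1 in BRN was not called without any 1 of 0 h replicate 1 (0.119), 0 h replicate 3 (0.067) and 18 h replicate 2 (0.0744), nor with transcript length offsets.

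Of the 7 genes grouped as peroxisomal, edgeR called 2 in iBAT, where 20.9% of all genes were called, and 2 in STM, where 15.3% were. Acaa1a in iBAT, a peroxisomal thiolase whose counts are uncertain beside Acaa1b, was at 138.9, 140.9 and 156.8 normalized CPM in the fed libraries, at 188.5, 164.7 and 181 after 18 h and at 270.4 and 277 after 22 h. All late libraries were above the fed ones (log2FC 0.60, SE 0.16, adjusted p 0.0184), with the call lost without 0 h replicate 2 (0.0748). Every library of 2, 8 and 12 h was above the fed ones as well, from 157.001 to 278.3, the highest being 12 h replicate 3. Acox3 in iBAT was called lower (-0.61, adjusted p 0.0449), though with transcript length offsets the direction was not kept (0.000263), a call lost without any 1 of 0 h replicate 1 (0.0587), 0 h replicate 2 (0.275), 18 h replicate 2 (0.0888), 18 h replicate 3 (0.0794) and 22 h replicate 2 (0.157). Its fed libraries were at 44.96, 62.6 and 42.6 normalized CPM. Those of 18 h, at 58.01, 38.9 and 45.7, overlapped with them, while those of 22 h, at 18.5 and 26.4, lay below them. In STM, Hsd17b4, the D-bifunctional protein of the hydration and dehydrogenation steps, was at 85.6, 91.4 and 95.0 normalized CPM in the fed libraries, at 38.9, 48.9 and 41.2 after 18 h and at 50.4, 73.9 and 64.1 after 22 h. Every late library was below every fed one (log2FC -0.80, SE 0.14, adjusted p 0.00432), and no single library changed the call. With lane as a covariate, and at 22 h alone, no pathway gene was called in STM, Hsd17b4 included. Ehhadh, the L-bifunctional protein, was at 24.2, 31.8 and 29.8 normalized CPM in the fed libraries, at 8.22, 14.8 and 15.6 after 18 h and at 21.3, 19.6 and 9.70 after 22 h in STM. The late libraries were below the fed ones (log2FC -0.96, SE 0.25, adjusted p 0.0193). Ehhadh in STM was not called without 0 h replicate 3 (0.0797). In LIV, Ehhadh was at 159.3, 172 and 136.3 normalized CPM in the fed libraries, at 76.5, 56.7 and 69.4 after 12 h, at 53.6, 93.6 and 114.9 after 18 h and at 139.8, 116.3 and 78.5 after 22 h, with the 12 and 18 h libraries below the fed ones and 1 of the 22 h libraries inside the fed range (log2FC -0.66, SE 0.21, adjusted p 0.0596). DESeq2 called Ehhadh in LIV, and so did edgeR at 18 h alone (log2FC -0.83, adjusted p 0.048) and with no filter on low counts. It was called by edgeR as well without 18 h replicate 3 (0.0228) or 22 h replicate 1 (0.0367). Acaa1b in LIV was at 1559, 1519 and 1465 normalized CPM in the fed libraries, at 2686, 2827 and 2548 after 8 h, at 1376, 1642 and 1747 after 12 h, at 1509, 1151 and 1367 after 18 h and at 1335, 1658 and 1196 after 22 h, highest at 8 h.

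Electron transfer from the dehydrogenases runs through the flavoprotein subunits Etfa and Etfb and through Etfdh. Etfb (chr7:43444083-43457800) was called higher in 3 organs. In LIV it was at 37.6, 39.5 and 45.4 normalized CPM in the fed libraries, at 72.1, 94.0 and 77.8 after 18 h and at 52.0, 69.2 and 81.2 after 22 h. All 6 late libraries were above the 3 fed ones (log2FC 0.86, SE 0.15, adjusted p 0.00145). It was called without each of the 9 libraries left out in turn and at 18 h (log2FC 0.99, adjusted p 0.0014) and 22 h alone (log2FC 0.72, adjusted p 0.0199). With lane as a covariate it was called too (log2FC 1.38). Only the 8 h libraries lie in both lanes, so the lane term rests on them and that fit cannot separate lane from fast. At 8 h Etfb was at 62.3, 59.3 and 42.3 and at 12 h at 64.5, 81.8 and 78.3 (log2FC 0.65, SE 0.15, adjusted p 0.0114), a call lost without any 1 of 0 h replicate 1 (0.0802) and 0 h replicate 2 (0.0743). Etfdh in LIV, in contrast, was at 117.6, 126.2 and 96.2 normalized CPM in the fed libraries, at 52.3, 55.05 and 96.2 after 18 h and at 84.4, 67.3 and 69.05 after 22 h. The late libraries lay at or below the lowest fed library (log2FC -0.68, SE 0.20, adjusted p 0.0412), and Etfdh was not called without any 1 of 0 h replicate 1 (0.122), 0 h replicate 2 (0.160), 0 h replicate 3 (0.0553), 18 h replicate 1 (0.0671), 18 h replicate 2 (0.0753), 22 h replicate 2 (0.0819) and 22 h replicate 3 (0.0769). In iBAT, Etfb was at 50.1, 41.8 and 37.3 normalized CPM in the fed libraries, at 43.2, 45.3 and 43.6 after 18 h and at 415 and 160.9 after 22 h. The 18 h libraries lay inside the fed range and the 2 libraries at 22 h were several times higher (log2FC 1.38, SE 0.30, adjusted p 0.00638, at 18 h alone log2FC 0.03, adjusted p 0.988, at 22 h alone log2FC 2.73, adjusted p 0.000186). In BRN, Etfb was at 1.40, 2.099 and 1.05 normalized CPM in the fed libraries, at 11.03 and 4.23 after 18 h and at 6.02, 10.6 and 2.80 after 22 h, low in every library, and the late libraries were above the fed ones (log2FC 2.21, SE 0.65, adjusted p 0.0375). The BRN libraries of 2, 8 and 12 h were above the fed ones as well, apart from 2 h replicate 3 (0.459). The BRN call was lost without any 1 of 0 h replicate 1 (0.152), 0 h replicate 2 (0.0807), 0 h replicate 3 (0.136), 18 h replicate 2 (0.110), 22 h replicate 1 (0.0688) and 22 h replicate 2 (0.0942). In STM, Etfa was at 133.04, 121.4 and 212 normalized CPM in the fed libraries, at 69.6, 69.5 and 75.4 after 18 h and at 76.7, 110.4 and 70.5 after 22 h. Late libraries were below the fed ones (log2FC -0.99, SE 0.20, adjusted p 0.00607), and Etfa was not called without 0 h replicate 3 (0.0563). Etfdh in STM was at 70.7, 73.3 and 81.9 normalized CPM in the fed libraries, at 44.7, 33.5 and 34.5 after 18 h and at 40.8, 81.7 and 45.8 after 22 h. A single 22 h library lay among the fed ones (log2FC -0.71, SE 0.19, adjusted p 0.0228). Etfdh in STM was not called without any 1 of 0 h replicate 1 (0.058), 0 h replicate 3 (0.110) and 18 h replicate 3 (0.0531).

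The acyl-CoA thioesterases, which release free fatty acid from acyl-CoA, gave 1 called gene, in iBAT, where 20.9% of all genes were called. Acot1 in iBAT was at 7.03, 6.73 and 5.78 normalized CPM in the fed libraries, at 12.4, 23.96 and 26.3 after 18 h and at 24.2 and 13.1 after 22 h. All 5 late libraries were above the 3 fed ones (log2FC 1.58, SE 0.51, adjusted p 0.0397), and the call was lost without any 1 of 0 h replicate 1 (0.0767), 0 h replicate 2 (0.138), 0 h replicate 3 (0.0975), 18 h replicate 2 (0.0666), 18 h replicate 3 (0.0698) and 22 h replicate 2 (0.125). Transcript length offsets also lost this call. In LIV, Acot1 was at 23.2, 21.9 and 8.72 normalized CPM in the fed libraries, at 3.19, 7.92 and 15.04 after 18 h and at 13.7, 15.6 and 10.6 after 22 h and overlapped between groups (log2FC -0.73, SE 0.45, adjusted p 0.332). The paralogs Acot2, Acot3 and Acot4 in iBAT were at log2FC 0.18, 2.70 and 0.54, none called, and Acot3 was at 2.002 CPM or less in every iBAT library.

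A call in 1 organ and not in another does not show that the organs differ, so the differences of response were tested. The fasting response in LIV against the mean response of the 8 other organs gave 0 of 35 genes called by edgeR (0.678% of all genes, 0.348% higher and 0.33% lower, 1 gene at unadjusted p under 0.05 beside 9.94% of all genes), and DESeq2 was not run on it. The response of iBAT was then compared with that of LIV and of STM, comparisons chosen after the separate results were seen and sharing the iBAT libraries. Against LIV, 10 of 35 genes differed (9 higher in iBAT, 1 lower) with 13.0% of all genes called (5.14% higher, 7.9% lower), medians being 0.49 and -0.09. Acads gave a difference in log2FC of 1.18 (SE 0.25, adjusted p 0.00345) and Decr2 of 1.02 (SE 0.24, adjusted p 0.00645), both called under all 24 alternatives. None of these took 18 or 22 h alone or fitted lane or library series. Within iBAT at 18 h alone, edgeR gave Acads log2FC 0.37 (adjusted p 0.659) and Decr2 0.66 (0.324). At 22 h alone it gave Acads 1.09 (0.00175) and Decr2 0.98 (0.00514). Decr2 in LIV was at 201, 227 and 167.997 normalized CPM in the fed libraries, at 149.9, 160.6 and 173 after 18 h and at 192.8, 208 and 136.9 after 22 h, and in iBAT it rose, as given with the unsaturated chain enzymes. Against STM, 17 of 35 differed (16 higher, 1 lower) with 23.5% of all genes called (11.5% higher, 12.0% lower), medians being 0.67 and -0.09. Acads had a difference of 1.68 (adjusted p 0.000491), Etfa of 1.39 (0.00112), Echs1 of 1.56 (0.00113) and Eci1 of 1.54 (0.00147), adjusted p in parentheses. The other called differences (log2FC) were Echs1 (0.91), Acaa2 (0.84), Decr1 (0.81), Eci1 (0.76), Ehhadh (2.25), Cpt1a (-1.03), Acot1 (2.28) and Acaa1a (0.58) against LIV, and Decr2 (1.18), Acaa1a (0.86), Ehhadh (2.60), Hsd17b4 (0.74), Decr1 (0.92), Acadm (0.83), Hadh (0.82), Acadl (0.90), Ech1 (0.84), Acot3 (6.60), Slc22a5 (0.75), Acaa2 (0.71) and Acox3 (-0.86) against STM, of which Acot3 rests on counts near 0. Levels behind these not given elsewhere follow for the genes with the smallest adjusted p. Ehhadh in iBAT was at 72.6, 59.5 and 30.9 normalized CPM in the fed libraries, at 182, 244 and 144.1 after 2 h, at 184, 45.2 and 28.4 after 8 h, at 145.5, 56.2 and 89.7 after 12 h, at 96.6, 379 and 214 after 18 h and at 140.9 and 105.02 after 22 h, every late and every 2 h library being above the fed ones while those of 8 and 12 h overlapped with them, and was not called by edgeR at 18 and 22 h (log2FC 1.63, SE 0.63, adjusted p 0.084). Decr1 in iBAT was at 1138, 719 and 1071 normalized CPM in the fed libraries, at 1156, 1349 and 1392 after 18 h and at 1850.0 and 1576 after 22 h, and in LIV it was at 249, 241 and 198 normalized CPM in the fed libraries, at 159.96, 229.5 and 192.6 after 18 h and at 195, 202 and 203 after 22 h. The late libraries were above the fed ones in iBAT and overlapped with them in LIV. Etfa in iBAT was at 1398, 954 and 1276 normalized CPM in the fed libraries, at 1414, 1464 and 1403 after 18 h and at 1707 and 1802 after 22 h, and Hsd17b4 was at 340.0, 312 and 311 normalized CPM in the fed libraries, at 389, 385 and 411 after 18 h and at 191.2 and 268 after 22 h. All late libraries were above the fed ones for Etfa, while for Hsd17b4 the 18 h libraries were above and the 22 h libraries below. Eci1 in LIV (at 158, 151.3 and 110.5 normalized CPM in the fed libraries, at 100.01, 127 and 111.97 after 18 h and at 163.8, 160.7 and 115.9 after 22 h) overlapped between fed and late libraries. In STM, Acaa1a was at 202, 163 and 234.5 normalized CPM in the fed libraries, at 149.2, 192.3 and 163 after 18 h and at 217, 133.4 and 164.5 after 22 h and Decr2 was at 24.2, 26.3 and 32.0 normalized CPM in the fed libraries, at 19.2, 23.2 and 17.4 after 18 h and at 26.6, 27.99 and 16.2 after 22 h, and both overlapped between fed and late libraries. With the share of all genes called in parentheses, without iBAT 0 h replicate 2 the counts were 2 (3.96%) against LIV and 9 (11.6%) against STM, without STM 0 h replicate 3 the count against STM was 8 (9.8%), and against LIV it was 6 (7.84%) without LIV 0 h replicate 1 and 6 (8.07%) without LIV 0 h replicate 2. LIV, STM and iBAT at 22 h carry the lane confounding described for them, and lane was not fitted in these comparisons.

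Marker lists moved beside some of these results. In LIV, olfactory bulb neuron list genes (4 of 4 detected, most abundant Doc2g) were at 4.36, 3.17 and 4.50 CPM in the fed libraries, at 11.2, 9.73 and 12.2 after 18 h and at 6.66, 10.1 and 10.1 after 22 h, every late library being above every fed one, as for Etfb. Cerebellar neuron list genes in LIV (3 of 4, most abundant Cbln3, and Calb1 at 0 in every library) were at 0.641, 0.507 and 0.704 fed, 0.206, 0.139 and 0.190 after 18 h, and 0.317, 0.242 and 0.109 after 22 h, every late library being below every fed one. In iBAT, the summed white adipocyte markers (5 of 5 detected, most abundant Cfd) were at 2957, 3008 and 3671 CPM in the fed libraries, at 4571, 4723 and 4279 after 18 h and at 9664 and 6752 after 22 h. The summed brown adipocyte markers (7 of 7 detected, most abundant Ucp1) were at 12624, 8394 and 7871 fed, 8629.9, 9284 and 8775 after 18 h, and 17889 and 12062 after 22 h. Both 22 h libraries were above all others for white adipocyte markers, as for Etfb, Acads and Eci1, while for brown adipocyte markers 1 of them lay below a fed library. Genes of these lists went different ways. Ucp1 itself was at 8029.7, 5174 and 3521 fed and 5579 and 3893 after 22 h, inside the fed range, while Cox7a1 was at 663, 355 and 736 fed and 2191 and 1378 after 22 h. Among white adipocyte markers, Adipoq was at 1033, 766 and 1088 fed and 2425 and 1973 after 22 h, and Lep at 70.8, 103.2 and 164.01 fed and 23.5 and 68.3 after 22 h. Both 22 h libraries were above all others too for erythroid markers (2 of 2, most abundant Hbb-bs), at 191.1, 130.2 and 386 fed, 112.1, 411 and 111.2 after 18 h, and 422 and 539 after 22 h, and for epidermis markers (3 of 3, most abundant Krt10), at 4.71, 2.29 and 6.59 fed, 4.21, 5.28 and 4.93 after 18 h, and 13.7 and 12.7 after 22 h. Skeletal muscle markers (8 of 8 detected, most abundant Acta1) ran unevenly, at 88.9, 462 and 3009 fed, 319, 291 and 1098 after 18 h, and 2174 and 1719 after 22 h. Hepatocyte list genes in iBAT (6 of 6, most abundant Cyp2e1) were at 101.4, 185 and 161.3 fed, 266, 451 and 284 after 18 h, and 250.1 and 412 after 22 h, and smooth muscle markers (3 of 3, most abundant Myh11) at 43.7, 58.1 and 30.5 fed, 30.1, 21.7 and 25.6 after 18 h, and 13.998 and 12.6 after 22 h. The former were higher and the latter lower in every late library than in every fed one. In STM, gastric epithelium markers (7 of 7, most abundant Pgc) were at 237756, 154671 and 271466 fed, 136789, 107237 and 135738 after 18 h, and 149866, 180267 and 87045 after 22 h, and fed and late libraries overlapped. Skeletal muscle markers in STM (8 of 8, most abundant Acta1) were at 1882, 1554 and 286 fed, 2213, 4088 and 2154 after 18 h, and 2586, 3052 and 4090.4 after 22 h, neuron markers (5 of 5, most abundant Snap25) at 16.2, 22.9 and 32.8 fed, 68.9, 41.7 and 62.9 after 18 h, and 58.9, 45.5 and 47.4 after 22 h, and olfactory bulb neuron list genes (4 of 4, most abundant Doc2g) at 5.66, 5.38 and 5.74 fed, 13.2, 8.44 and 14.2 after 18 h, and 17.2, 6.71 and 9.58 after 22 h. For these 3 lists every late library was above every fed one. In STM, pancreatic acinar markers (5 of 5 detected, most abundant Cel) were at 104.2, 21.96 and 274 in the fed libraries, 11.8, 1.98 and 9.20 after 18 h and 15.9, 21.8 and 5.62 after 22 h, white adipocyte markers (5 of 5, most abundant Cfd) at 83.6, 13.6 and 125.2 fed, 11.8, 3.43 and 8.04 after 18 h, and 4.36, 17.4 and 10.3 after 22 h, and smooth muscle markers (3 of 3, most abundant Myh11) at 3765, 3946 and 2483 fed, 6608, 2658 and 6381 after 18 h, and 4199, 6198 and 8464 after 22 h. Fed replicate 3 was highest for acinar and white adipocyte markers and for Echs1, Etfa and Eci1. Brown adipocyte markers in STM (7 of 7, most abundant Cox7a1) were at 96.6, 64.1 and 217.7 fed. Leukocyte markers (6 of 6, most abundant Lyz2) were at 44.8, 36.7 and 113.9 fed, and erythroid markers (2 of 2, most abundant Hba-a1) at 45.4, 15.9 and 123.4. For each of these lists fed replicate 3 was the highest STM library as well. In BRN, oligodendrocyte markers (4 of 4, most abundant Mbp) were at 7202, 7211 and 5559 in the fed libraries, 21572 and 6887 after 18 h and 16454, 27277 and 8292 after 22 h. Erythroid markers in BRN (2 of 2, most abundant Hbb-bs) were at 39.7, 93.7 and 74.3 fed, 468 and 285 after 18 h, and 208, 197 and 119.98 after 22 h, and pancreatic acinar markers (5 of 5, most abundant Ctrb1) at 3.91, 10.3 and 4.08 fed, 20.2 and 15.8 after 18 h, and 49.3, 85.4 and 17.01 after 22 h, each higher in every late library than in every fed one. Ech1, Acads and Etfb were highest in the BRN libraries with the highest oligodendrocyte sums. Apart from Calb1 in LIV, no defining marker of these lists was at 0 in every library of the organ named. The part of these cells in the results was not tested.

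In the remaining organs edgeR called 0 of the pathway's genes at 18 and 22 h. In pgWAT, 0 of 33 were called (0.00609% of all genes, 0.0% higher and 0.00609% lower), 2 at unadjusted p under 0.05 beside 21.7% of all genes, and DESeq2 called 0, with medians of 0.11 and 0.05. In psWAT, 0 of 32 were called (0.0% of all genes), 0 at unadjusted p under 0.05 beside 5.19% of all genes, and DESeq2 called 0, although the median log2FC was -0.70 beside -0.01 for all genes. The summed level of the 35 genes in psWAT was at 11000.4, 7953 and 1461 CPM in the fed libraries, at 2143, 3104 and 4585 after 18 h and at 1310.3 and 9173 after 22 h. Summed white adipocyte markers (5 of 5 detected, most abundant Cfd) were at 17342, 13330.1 and 1121 fed, 2711, 5999.8 and 9233 after 18 h, and 251 and 8229 after 22 h, and at each of these times the library with the lowest adipocyte sum also had the lowest sum of the 35 genes. Summed brown adipocyte markers in psWAT (7 of 7 detected, most abundant Cidea) were at 2259, 1492 and 32.7 fed, 65.3, 82.8 and 441 after 18 h, and 22.6 and 1608 after 22 h. The library 22 h replicate 3 was above 18 h replicate 3 in the sum of the 35 genes and in brown adipocyte markers and below it in white adipocyte markers. Skeletal muscle markers in psWAT ran unevenly, from 15.5 to 31888 CPM over all libraries. They were at 1181, 585 and 15.5 fed, 1938, 19.7 and 22960 after 18 h, and 263.6 and 7781 after 22 h. Their part in the result was not tested. In CBL, 0 of 30 were called (0.344% of all genes, 0.125% higher and 0.219% lower), 4 at unadjusted p under 0.05 beside 15.04% of all genes, and DESeq2 called 1, Eci2 (0.31). In BST, 0 of 33 were called (0.0596% of all genes, 0.0119% higher and 0.0477% lower), 4 at unadjusted p under 0.05 beside 9.87% of all genes, and DESeq2 called 0, while 1 was called without BST 0 h replicate 1 (0.375% of all genes) and 1 without BST 18 h replicate 1 (0.131%). In OB, 0 of 32 were called (1.95% of all genes, 0.782% higher and 1.17% lower), 4 at unadjusted p under 0.05 beside 22.8% of all genes, and DESeq2 called 0. The log2FC of pathway genes ran from -0.21 to 0.30 in CBL, from -0.31 to 0.48 in BST and from -0.49 to 0.39 in OB. Without the library that stood apart in pgWAT (22 h replicate 2) and that in psWAT (12 h replicate 3), the counts were 0 in both depots.

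**Figure D4:**
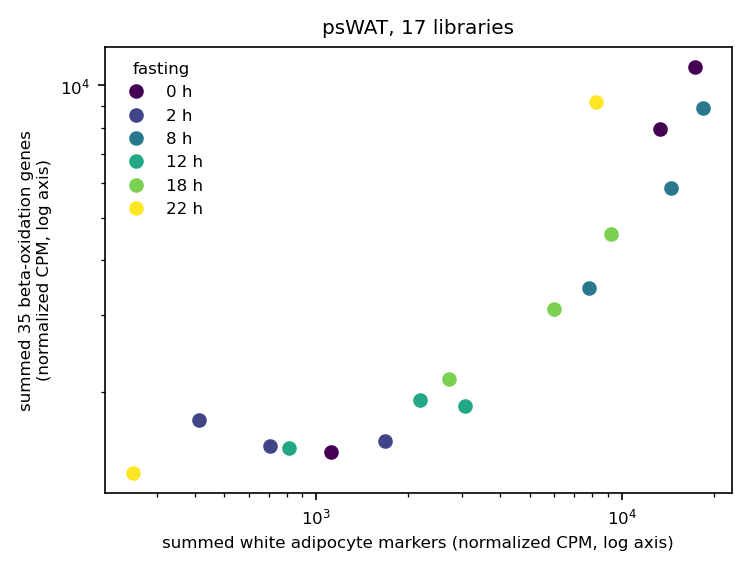
Summed level of the 35 genes against summed white adipocyte markers in 17 psWAT libraries (normalized CPM, both axes log), colored by fasting time. Libraries of a single fasting time lie at both ends of the plot.

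Other genes of fatty acid handling were counted in the same tests at 18 and 22 h, with up to 5 called genes of smallest adjusted p named per list and their log2FC in parentheses. The shares of all genes called were 10.6% in LIV, 20.9% in iBAT, 15.3% in STM and 11.2% in BRN. Since some gene names cannot be printed, genes of peroxisome assembly are not reported here, and other acyl-CoA and peroxisomal enzymes in STM are given as counts alone. Of the genes for fatty acid uptake and activation, such as the acyl-CoA synthetases, LIV had 1 higher and 3 lower of 12 tested, Acsl5 (-0.76), Acsl3 (-0.79), Acsl4 (-0.56) and Slc27a1 (0.62), and iBAT had 2 higher and 3 lower of 11 tested, Acsl3 (-1.13), Acsl5 (-1.01), Acsl4 (-0.69), Slc27a2 (0.80) and Slc27a4 (0.59). In turn, STM had 1 higher and 2 lower of 14 tested, Acsl5 (-0.78), Slc27a1 (0.83) and Acsl3 (-0.96), and BRN had 2 higher and 0 lower of 12 tested, Slc27a4 (0.67) and Fabp5 (1.05). Of other acyl-CoA and peroxisomal enzymes, LIV had 0 higher and 3 lower of 21 tested, Abcd3 (-0.58), Amacr (-0.34) and Slc25a17 (-0.43), and iBAT had 4 higher and 0 lower of 22 tested, Amacr (0.80), Acad12 (0.64), Acot13 (0.72) and Acot7 (0.59). In turn, STM had 1 higher and 8 lower of 21 tested, and BRN had 3 higher and 0 lower of 22 tested, Nudt19 (0.89), Acot7 (0.59) and Acot13 (1.18). Of the genes that set malonyl-CoA or mitochondrial entry, among them the acetyl-CoA carboxylases Acaca and Acacb, LIV had 0 higher and 1 lower of 4 tested, Acacb (-0.69), and iBAT had 0 higher and 2 lower of 4 tested, Acaca (-1.23) and Acacb (-0.79). In turn, STM had 1 higher and 0 lower of 4 tested, Cpt1c (1.36), and BRN had 0 higher and 0 lower of 4 tested. Of the regulators, LIV had 1 higher and 0 lower of 14 tested, Tfeb (0.60), and iBAT had 0 higher and 2 lower of 12 tested, Lpin1 (-1.16) and Lpin2 (-0.84). In turn, STM had 1 higher and 0 lower of 14 tested, Lpin2 (0.74), and BRN had 0 higher and 0 lower of 13 tested. The lane and library series confounding of LIV, STM, iBAT and BRN holds for these genes too.

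Promoter windows from RefSeq (GRCm38.p6, 250 bases before to 50 after the start) matched 30 of the 35 genes in 32 windows, and Crat, Acaa2, Hsd17b4, Cpt1b and Decr1 had none. Both strands were searched. The direct repeat AGGNCANAGGNCA, the spacing bound by PPAR and RXR, was in 0 of 32 windows and in 0.381% of all 32851, which says only that these letters are not in these windows. A pair of general promoter motifs was chosen after that. The GC box GGGCGG was in 22 of 32 windows (35.7% of all windows), and the CCAAT box in 16 (37.4% of all windows). To show the letters behind these counts, 100 bases before the start are given for Etfb and Etfa, subunits of 1 protein, and for Acads and Slc22a5, which rose in iBAT, each 5′ to 3′ on the strand of the gene with CCAAT or GC boxes of either strand in capitals. Etfb lies at chr7:43443972-43444071, plus strand, Etfa at chr9:55512244-55512343, minus strand, Acads at chr5:115119347-115119446, minus strand and Slc22a5 at chr11:53891704-53891803, minus strand. A match is a description and not a site.
Etfb: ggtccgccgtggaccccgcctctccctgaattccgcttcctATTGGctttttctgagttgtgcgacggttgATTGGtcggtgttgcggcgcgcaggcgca
Etfa: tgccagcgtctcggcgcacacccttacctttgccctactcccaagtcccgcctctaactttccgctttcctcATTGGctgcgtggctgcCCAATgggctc
Acads: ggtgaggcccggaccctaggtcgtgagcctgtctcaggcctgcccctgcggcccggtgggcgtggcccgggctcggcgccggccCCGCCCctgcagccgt
Slc22a5: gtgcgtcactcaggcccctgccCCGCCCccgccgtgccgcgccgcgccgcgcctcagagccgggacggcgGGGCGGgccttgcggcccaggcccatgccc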

How the data were processed

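Values are raw read counts per gene deposited by the authors, from mRNA sequencing aligned to mouse GRCm38 and counted with HTSeq. The counts of the retained libraries were used as deposited, and 5 libraries that the authors left out were left out here. The 35 genes and all lists were chosen with earlier results of these data known. Within each organ, a gene was kept when 3 or more libraries reached the CPM that 10 counts give at the organ's median total, and kept genes were normalized by TMM and fitted with edgeR 4.0.16 (quasi-likelihood, robust, 1 coefficient per time) in R 4.3.3. Called means a Benjamini-Hochberg adjusted p under 0.05 over all genes kept. Organ comparisons used 1 fit of all retained libraries (54 coefficients), with the dispersion trend estimated on every 10th gene and interpolated; the comparisons of iBAT with LIV and with STM responses used both organs' libraries. Alternatives included DESeq2 1.42.0 (for organ comparisons, on the compared organs' libraries only), other normalization, filters, length offsets, covariates, a block and leaving out each library. Within an organ the mean correlation of libraries with the same number was 0.157 in iBAT and at most 0.0261 in the other organs. Numbers were not treated as pairs, and a block on the number was an alternative. A number shared between organs may mark 1 mouse, though the sample titles do not state it. Between organs the mean correlation at the same time and number was 0.0271 (iBAT and pgWAT), 0.00747 (iBAT and psWAT) and -0.0042 (LIV and iBAT). Named genes are all called genes up to 8 per comparison by adjusted p, other called genes by name with log2FC, the palmitoyltransferases and Acadm, the highest gene per organ, and paralogs side by side; Ehhadh, Acot1 in LIV and printed promoters were added after their values were seen. The method was tested on simulated data.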

Additional observations from a re-analysis of the deposited data

Results flagged for a closer look

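The following genes differed in their fasting response between organs by a test of the difference itself (edgeR, adjusted p under 0.05), given as the response of iBAT minus that of the other organ in log2FC. Against LIV these were Cpt1a (-1.03), Acads (1.18), Echs1 (0.91), Eci1 (0.76), Decr1 (0.81), Decr2 (1.02), Acaa1a (0.58), Acaa2 (0.84), Ehhadh (2.25) and Acot1 (2.28). Against STM these were Slc22a5 (0.75), Acadl (0.90), Acadm (0.83), Acads (1.68), Hadh (0.82), Echs1 (1.56), Eci1 (1.54), Decr1 (0.92), Decr2 (1.18), Acaa1a (0.86), Acaa2 (0.71), Acox3 (-0.86), Ehhadh (2.60), Hsd17b4 (0.74), Etfa (1.39), Acot3 (6.60) and Ech1 (0.84). Both comparisons use the same iBAT libraries and were added after the separate results were seen. Without iBAT 0 h replicate 2, Echs1, Acaa2, Decr1, Eci1, Ehhadh, Cpt1a, Acot1 and Acaa1a were not called against LIV, which left 2, and without STM 0 h replicate 3, Decr1, Acadm, Hadh, Acadl, Ech1, Acot3, Slc22a5, Acaa2 and Acox3 were not called against STM, which left 8. Without iBAT 0 h replicate 2, Decr1, Acadm, Hadh, Acadl, Ech1, Acot3, Acaa2 and Acox3 were not called against STM. Acot3 did not pass the STM filter: it was at 0 in all STM libraries of 18 and 22 h, at 0, 0 and 0.589 CPM in the fed ones, and at 2.002 CPM or less in iBAT, so its fitted difference rests on near-zero counts, depends on the prior count and is no bound. Its adjusted p was 0.99997 without STM 0 h replicate 3.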

How the results depend on the processing

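Counts below are pathway genes called. Of 246 counts under alternatives, 50 moved by more than 1.5 times and the others did not. Of 1358 values of named genes, 1032 kept direction and call, 324 kept direction alone and 2 reversed (Cpt1a in iBAT to 0.37 at 18 h alone, and Acox3 in iBAT to 0.000263 with length offsets). These totals pool the organ comparisons with the fasting ones. Over all comparisons 76 genes were named, and 24 of these were called under every alternative. In LIV at 18 and 22 h, Etfb was called under 17 of 18 alternatives and Acads, Echs1 and Etfdh under 7 of 18 each. The share of all genes called is given in parentheses. Requiring an absolute log2FC over 1 gave 0 (1.66%) in LIV, 3 (9.6%) in iBAT, 1 (7.09%) in STM, 0 (0.813%) in LIV at 8 and 12 h, 5 (8.1%) for iBAT against LIV and 7 (18.3%) for iBAT against STM. DESeq2 gave 5 (18.0%) in BRN and 1 (2.18%) in CBL. No filter gave 1 (2.34%) in CBL, 1 (0.51%) in BST, 8 (6.88%) in LIV at 8 and 12 h and 9 (10.2%) for iBAT against STM. Taking same-numbered libraries as pairs, a replicate block, gave 2 (8.82%) in LIV and 18 (22.8%) in iBAT, the organ where numbers correlated most. Lane as a covariate gave 1 (0.15%) in LIV and 0 (0.0%) in STM, and library number series gave 6 (9.81%) in iBAT and 0 (0.0%) in BRN. The series covariate in iBAT amounts to leaving out 22 h replicate 2. All BRN libraries gave 0 (0.0%), and leaving out those that stood apart gave 0 (1.14%). Single times, chosen after seeing the data, gave 1 (4.15%) in LIV at 22 h, 0 (0.275%) in iBAT at 18 h, 0 (0.24%) in STM at 22 h and 0 (2.41%) in BRN at 18 h. The cause was not tested. Leaving out 1 library gave 1 to 4 in LIV, 2 to 13 in iBAT, 1 to 11 in STM, 0 to 9 in BRN, 0 to 1 in BST, 0 to 0 in pgWAT, 0 to 0 in psWAT, 0 to 0 in CBL, 0 to 0 in OB, 1 to 7 in LIV at 8 and 12 h, 0 to 0 for LIV against the other organs, 2 to 12 for iBAT against LIV and 8 to 18 for iBAT against STM. Over all genes, the same leaving out gave 592 to 1600 called in LIV, 592 to 4637 in iBAT, 488 to 3405 in STM, 0 to 5592 in BRN, 0 to 72 in BST, 1 to 199 in pgWAT, 0 to 0 in psWAT, 5 to 244 in CBL, 3 to 1261 in OB, at most 1526 in LIV at 8 and 12 h, 636 to 3563 for iBAT against LIV and 1695 to 4919 for iBAT against STM. Each organ had 3 fed libraries, totals went down to 3045845, a gene that was not called is not shown to be unchanged, and lane is nearly confounded with the fast in LIV, STM, OB and pgWAT and cannot be told apart from a 22 h fast in iBAT. A lane covariate was not run in iBAT or pgWAT.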
